A study of Mus musculus with 17 samples.

Results

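Thymocytes of the double-negative stage DN2 from young Lmo2-transgenic mice were compared with those of young wild-type mice, across all expressed genes. The comparison rests on 5 of the 17 RNA-seq libraries of the series. The 2 wild-type libraries (mouse 1, female, and mouse 2, male) and the 3 transgenic libraries (mice 162 and 163, female, and mouse 166, male) are all from C57BL/6 mice aged 2.5 weeks, and each library is 1 mouse. The other 12 libraries hold DN3a cells, the next stage, from young and old mice of both genotypes, and the 5 mice used here also gave a DN3a library each. The young DN3a libraries are from mice aged 2.5 weeks, except wild-type replicate 3 (mouse 492, female) at 3 weeks. The old mice were aged 6, 8 or 10 weeks. The labels used here name neither the promoter that drives the transgene nor the cell surface gate by which DN2 cells were sorted, and the design mentions 1 more wild-type DN2 replicate, which is not analysed here. Of 27179 features in the count table, 17293 had a read in a DN2 library and 13534 passed the filter on low counts and were tested.

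LMO2 is a protein of LIM domains that does not bind DNA itself. It bridges basic helix-loop-helix dimers of TAL1 or LYL1 with an E protein, which sit on E-box sequences, to GATA factors, and the adaptor LDB1 holds such complexes together. Blood stem cells and early progenitors need LMO2, whereas thymocytes switch the gene off as they commit to the T lineage around the DN2 and DN3 stages. Its forced expression in thymocytes is a known cause of T cell leukaemia in mice and humans. During normal DN2, thymocytes shut down stem cell regulators such as PU.1 and KIT and switch on the CD3 chains, the pre-T cell receptor and the recombinase that cuts the receptor genes.

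Levels are given as CPM, a gene's reads scaled to a common library total with TMM factors, for the wild-type replicates 1 and 2 and the transgenic replicates 1, 2 and 3 in that order. A gene is called higher or lower where edgeR's quasi-likelihood test gave a Benjamini-Hochberg adjusted p under 0.05 over all 13534 genes tested. Folds are log2 fold changes of transgenic over wild-type ± SE. At that threshold 3426 genes (25.3%) were called, 1797 higher (13.3%) and 1629 lower (12%), and 2128 genes (15.7%) were both called and changed at least 2-fold. In 6726 genes (49.7%) the libraries of the 2 groups did not overlap. The median fold over all genes tested was 0.03.

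Total counts ran from 7183303 to 11360308 reads per library, and 1 read amounted to 0.0880 to 0.139 CPM before TMM scaling. Wild-type replicate 1 stood apart, with reads in only 13028 genes although its total was the largest, where the other 4 libraries had reads in 15089 to 15680. The log CPM values of the wild-type pair correlated at 0.953 and those of transgenic pairs at 0.962 to 0.983, and the values between genotypes at 0.878 to 0.932. An unnamed feature of 5868 bases took 0.609 and 1.33% of wild-type reads, but 3.81, 16.6 and 12.4% of reads in the transgenic libraries. The share of Lars2, a mitochondrial leucyl-tRNA synthetase gene, was 0.0573 and 0.108% in the wild-type pair, and 0.879, 3.503 and 2.43% in the transgenic libraries. Both shares ranked the libraries in the same order, with every transgenic library above both wild-type libraries. A fit with the unnamed feature's share therefore cannot fully separate that share from genotype in DN2. What the reads of the unnamed feature come from was not established. Whether the reads counted for Lars2 come from transcripts of that gene was not tested. In 62.3% of called genes, against 51.4% of all genes tested, transgenic replicate 1 was the transgenic library nearest to the wild-type mean. The part of these differences in the results was not tested, apart from the fits given beside the counts. The number of calls was 1535 without wild-type replicate 1, 2177 and 2261 without transgenic replicates 2 and 3, and 1413 when the unnamed feature's log2 share entered the fit.

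**Figure D1:**
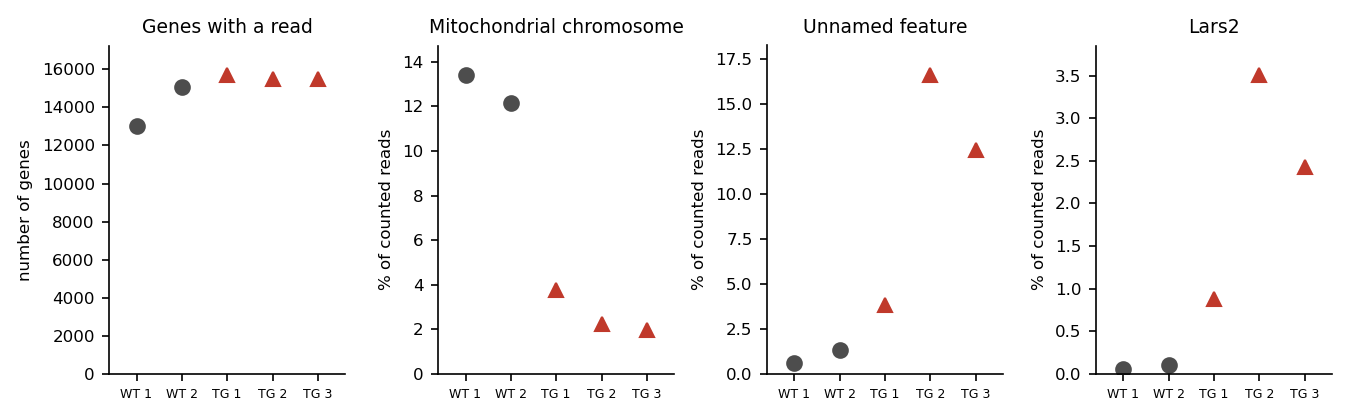
Genes with at least 1 read (number) and the shares of counted reads (%) from the mitochondrial chromosome, the unnamed feature and Lars2 in each young DN2 library, with wild-type (WT) as grey circles and transgenic (TG) as red triangles. Wild-type replicate 1 has the fewest genes with a read (13028), and transgenic replicates 2 and 3 have the largest shares of the unnamed feature (16.6 and 12.4%).

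Lmo2 itself (Entrez gene 16909, chromosome 2, 103957903 to 103981878, build GRCm38) was read at 0 and 0.401 CPM in wild-type and 156, 107 and 92.4 CPM in transgenic libraries. The lowest transgenic library held 92.4 CPM, and 1 wild-type library held no read of the gene (log2 fold change 9.19 ± 0.69, adjusted p = 1.37e-07). Il2ra, which encodes the CD25 chain that DN2 cells display, stood at 1911 and 1796 CPM in wild-type and 1759.9, 2075 and 2266 CPM in transgenic libraries, and the groups overlapped (adjusted p = 0.643). Kit, the stem cell factor receptor that normally fades through this stage, stood at 489, 615 and 653 CPM in transgenic against 152 and 126 CPM in wild-type libraries (log2 fold change 2.08 ± 0.28, adjusted p = 4.43e-05). Cd44, the adhesion receptor that falls after DN2, was read at 23.3 and 18.7 CPM in wild-type and 39.7, 50.1 and 55.8 CPM in transgenic libraries, and the difference did not pass the test (adjusted p = 0.102). Thy1, a surface protein of nearly all T lineage cells, stood at 227, 163 and 123 CPM in transgenic against 1462 and 1296 CPM in wild-type libraries (log2 fold change -3.01 ± 0.22, adjusted p = 5.36e-08). Il7r, the receptor chain for the survival cytokine interleukin 7, stood at 213 and 205 CPM in wild-type and 30.6, 26.2 and 25.7 CPM in transgenic libraries (log2 fold change -2.92 ± 0.201, adjusted p = 3.63e-08). The sixth marker of the stage, Cd24a, stood at 461 and 375 CPM in wild-type and 223, 236 and 254 CPM in transgenic libraries and missed the threshold (adjusted p = 0.0524). Of the 6 stage markers, 1 was thus higher, 2 were lower and 3 were not called. In bulk RNA, fewer cells of a kind and less RNA in each cell cannot be told apart.

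Of 11 granulocyte and monocyte markers, S100a8, S100a9, Elane and Ly6g had no read in any of the 5 libraries, while Mpo, the peroxidase of granulocyte precursors, stood at 4.95 and 1.103 CPM in wild-type and 66.5, 83.1 and 95.8 CPM in transgenic libraries (4.73 ± 0.496). The summed level of these 11 genes was 33.6 and 34.999 CPM in wild-type and 135 to 175 CPM in transgenic libraries, with 4 of 6 tested members higher. Ctsg, a serine protease stored beside Mpo, had no wild-type read and 3.49, 1.45 and 3.91 CPM in transgenic libraries (at least 22.02-fold higher, from a floor of 3 counts over the wild-type group). The 7 macrophage markers summed to 6.81 and 7.12 CPM in wild-type and 22.1 to 33.7 CPM in transgenic libraries, nearly all of it Cd163, a haemoglobin scavenger receptor, at 21.1, 25.3 and 33.1 CPM in transgenic against 6.37 and 7.12 CPM in wild-type libraries (1.97 ± 0.35). Cd163 was the only macrophage marker that could be tested. Among 8 natural killer markers, Ncr1, Klra8 and Klre1 had no read, and Gzma, a cytotoxic granule protease, made up nearly all of the sum of 219 and 192 CPM in wild-type and 12.8 to 37.98 CPM in transgenic libraries. For B cells, Ms4a1 and Pax5 were at 0 in all 5 libraries. The 8 markers of mast cells summed to 299 and 171 CPM in wild-type and 689 to 799.6 CPM in transgenic libraries, almost wholly from Cpa3, a carboxypeptidase also found in early progenitors, which did not pass the test (1.67 ± 0.83, adjusted p = 0.161). Ms4a2, Fcer1a, Tpsb2 and Cma1, which mature mast cells express, were at 0. Thymic stroma markers were at or near 0 for Krt5, Krt8, Foxn1 and Pdgfra, and of the 4 tested 1 was higher and 2 lower. Epcam, an adhesion molecule of epithelium that thymocytes can also carry, stood at 35.4 and 60.1 CPM in wild-type and 4.05, 2.58 and 2.87 CPM in transgenic libraries (log2 fold change -3.88 ± 0.26, adjusted p = 3.63e-08). Pecam1, an adhesion molecule of endothelium and of many leukocytes, stood at 168 and 152 CPM in wild-type and 271, 282 and 283 CPM in transgenic libraries (log2 fold change 0.798 ± 0.16, adjusted p = 0.00175) and made up most of the list's sum of 208 and 214 CPM in wild-type and 277, 285 and 286 CPM in transgenic libraries. Cdh5, the cadherin of endothelium, had 3.18 and 0.602 CPM in wild-type and no transgenic read (at least 16.1-fold lower, adjusted p = 0.0297). In other fits the call ended for Cdh5 without wild-type replicate 1, transgenic replicate 1, transgenic replicate 2 or transgenic replicate 3 or with the unnamed feature's share in the fit. Beta globin transcripts appeared in transgenic libraries, with Hbb-b1 at 55.99, 32.7 and 37.7 CPM in transgenic against 0.708 and 1.203 CPM in wild-type libraries (5.46 ± 0.64), although the globin genes are near-identical copies between which reads can be split. The alpha globin genes Hba-a1 and Hba-a2 had at most 0.261 CPM in any library. Of the remaining lists, dendritic cell markers counted 1 higher and 1 lower of 5 tested, markers of mature alpha beta T cells 2 and 1 of 6, of gamma delta T cells 0 and 2 of 7, of megakaryocytes 2 and 0 of 2, and CD4 and CD8 genes 0 and 1 of 3. Of all genes tested, 13.3% were higher and 12% lower. The 2 megakaryocyte calls, Itga2b and Gp1ba, both ended without wild-type replicate 1 or transgenic replicate 3 and with the unnamed feature's share in the fit. The lower call of Cd4 ended in these fits and without transgenic replicate 1. The defining genes Xcr1, Siglech, Pf4 and Ppbp had no read. The part of the markers that moved in the results was not tested.

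**Figure D2:**
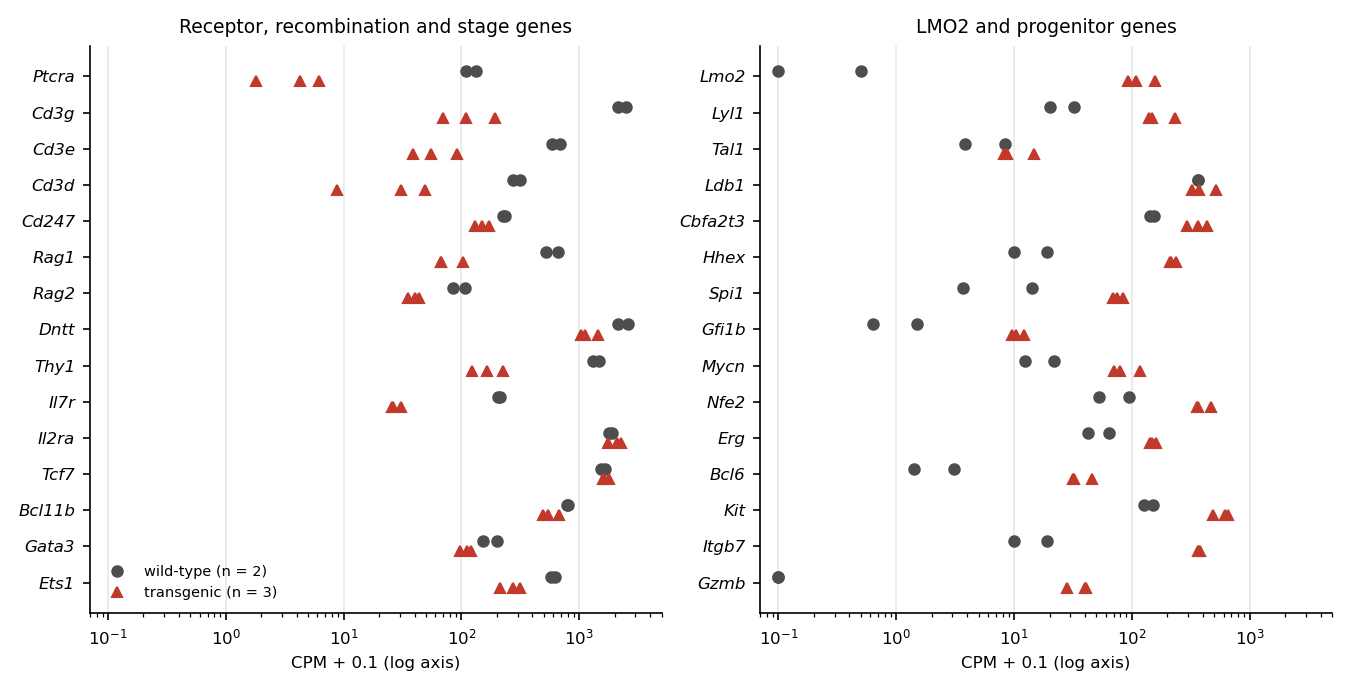
Level of 30 genes in each young DN2 library as CPM + 0.1 on a log axis, with wild-type as grey circles (n = 2) and transgenic as red triangles (n = 3). The CD3 genes, Ptcra, Rag1, Thy1 and Il7r lie to the left in every transgenic library, Il2ra and Tcf7 overlap, and Lmo2, Hhex, Spi1, Itgb7 and Gzmb lie to the right.

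Among genes of the LMO2 complex and its partners, 3 of 19 tested members were higher and 3 lower, shares near the 13.3% and 12% of all genes, with a median fold of -0.11. Higher and lower members numbered 2 and 1 without wild-type replicate 1 or with the unnamed feature's share in the fit. Lyl1, the helix-loop-helix factor that can stand in for TAL1, stood at 32.4 and 20.2 CPM in wild-type and 234, 147 and 139 CPM in transgenic libraries (log2 fold change 2.72 ± 0.61, adjusted p = 0.00602). Tal1, its close relative, stood at 8.31 and 3.71 CPM in wild-type and 8.67, 8.05 and 14.6 CPM in transgenic libraries, with overlapping groups and adjusted p = 0.446. The adaptor gene Ldb1 was read at 366 and 367 CPM in wild-type and 519.8, 369 and 326 CPM in transgenic libraries and did not pass the test (adjusted p = 0.697). Cbfa2t3, which encodes the corepressor ETO2 of such complexes, stood at 153 and 143 CPM in wild-type and 294, 434 and 361 CPM in transgenic libraries (log2 fold change 1.29 ± 0.18, adjusted p = 5.94e-05). Gata3, the GATA factor of T cells, stood at 202 and 151 CPM in wild-type and 120.4, 111 and 96.7 CPM in transgenic libraries (log2 fold change -0.69 ± 0.17, adjusted p = 0.00664). Gata2, the GATA factor of stem cells, was named after its values were seen and had 0.354 and 0.301 CPM in wild-type and 2.36, 2.58 and 2.35 CPM in transgenic libraries (adjusted p = 0.0622). The inhibitors of E proteins split. Id3 stood at 17.8 and 11.1 CPM in wild-type and 2.54, 3.704 and 3.26 CPM in transgenic libraries (-2.200 ± 0.37) and Id2 at 17.6 and 12.03 CPM in wild-type and 4.62, 5.15 and 8.22 CPM in transgenic libraries (-1.31 ± 0.46), both lower. Id1 was higher at a low level, with 0.0885 and 1.404 CPM in wild-type and 2.54, 4.35 and 3.52 CPM in transgenic libraries (2.22 ± 0.76). The E protein genes Tcf3, Tcf4 and Tcf12 and the partner Runx1, also named after their values were seen, had folds of -0.11 ± 0.19, 0.16 ± 0.18, -0.31 ± 0.19 and 0.17 ± 0.17, and none passed the test. Per kilobase of gene length, the transgenic mean of Lmo2 was 62.4 CPM against 96.3 for Lyl1, 2.51 for Tal1, 151 for Ldb1 and 34.1 for Gata3. On that scale Tal1 was the lowest of these 5 genes in transgenic cells. The threshold was missed for Gata3, Id2 and Id1 without wild-type replicate 1 or with the unnamed feature's share in the fit, for Id2 without transgenic replicate 1, for Id2 and Id1 without transgenic replicate 2, and for Id1 without transgenic replicate 3.

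Most receptor chain genes and 6 of 12 recombination genes were lower. Of 12 receptor chain and CD3 genes, 7 were lower and 1 higher, against 12% and 13.3% of all genes, with a median fold of -0.698. Cd3g, one of the CD3 chains that carry the receptor's signal inward, stood at 2482 and 2147 CPM in wild-type and 194, 109 and 69.03 CPM in transgenic libraries (log2 fold change -4.22 ± 0.32, adjusted p = 1.12e-07). Its neighbour Cd3e had 682 and 592 CPM in wild-type and 91.6, 55.6 and 38.5 CPM in transgenic libraries and Cd3d had 272 and 317 CPM in wild-type and 49.01, 30.6 and 8.74 CPM in transgenic libraries. For all 3, transgenic replicate 1 was the highest and transgenic replicate 3 the lowest of the transgenic libraries, and every transgenic value lay below both wild-type values. Ptcra, the surrogate alpha chain that pairs with a new beta chain, fell from 109 and 133 to 6.13, 4.19 and 1.696 CPM. Cd247, the zeta signalling chain encoded elsewhere in the genome, was lower too (227 and 236 CPM in wild-type and 173, 149 and 129 CPM in transgenic libraries, -0.62 ± 0.15). Constant regions of the gamma chain went both ways. Trgc1 stood at 648 and 518 CPM in wild-type and 257, 176 and 218 CPM in transgenic libraries (-1.42 ± 0.27) and Trgc2 had a fold of -0.77 ± 0.26, while Trgc4 stood at 145 and 121 CPM in wild-type and 399, 338 and 276 CPM in transgenic libraries (1.34 ± 0.28). Trgc1 and Trgc2 are close copies of each other, so their reads can be split. Trac and Trdc, the constant regions of the alpha and delta chains, did not pass the test (adjusted p = 0.688 and 0.817). Of 12 recombination and end joining genes, 6 were lower and none higher, against 12% of all genes lower. Other fits gave higher and lower counts of 0 and 3 with the unnamed feature's share in the fit. Rag1, the catalytic subunit of the recombinase, stood at 520.4 and 660.1 CPM in wild-type and 67.3, 104 and 66.5 CPM in transgenic libraries (log2 fold change -2.901 ± 0.28, adjusted p = 1.26e-06). Rag2, its cofactor, stood at 85.1 and 106 CPM in wild-type and 43.2, 35.1 and 40.5 CPM in transgenic libraries (-1.27 ± 0.28), and Dntt, which adds bases at the joints, at 2587 and 2149.5 CPM in wild-type and 1435, 1125 and 1032 CPM in transgenic libraries (-0.98 ± 0.25). The end joining genes Xrcc5, which encodes Ku80, and Lig4 were lower (-0.74 ± 0.19 and -1.05 ± 0.19), as was Hmgb2 (-1.59 ± 0.53), a DNA-bending protein. Calls were lost for Trgc2, Dntt and Hmgb2 without wild-type replicate 1, for Trgc2, Xrcc5 and Hmgb2 without wild-type replicate 2, for Trgc2 and Hmgb2 without transgenic replicate 2 or transgenic replicate 3, and for Cd247, Trgc2, Dntt, Xrcc5 and Hmgb2 with the unnamed feature's share in the fit.

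The CD3 genes lie within the longest stretch of neighbouring tested genes that were all lower. It runs over 7 genes on chromosome 9 from 44969572 to 45154155 (GRCm38) and holds Cd3g, Cd3d, Cd3e, Mpzl2, Mpzl3, Scn2b and Scn4b. Mpzl2 and Mpzl3 encode adhesion proteins, and Scn2b and Scn4b sodium channel subunits. Reads of adjacent genes cannot be assigned with certainty, since the strand of the libraries is not given in the sources used here. The longest stretch of genes that were all higher covers 6 genes on chromosome 7, Olfr643 to Olfm5 (104058656 to 104164816), most of them olfactory receptor or ubiquilin genes. A stretch of 5 higher genes on chromosome 1 (39900902 to 40551707) holds Map4k4 and the interleukin receptor genes Il1r1, Il1rl2, Il18r1 and Il18rap. Another of 5 on chromosome 15 (102150415 to 102257522) holds the integrin gene Itgb7 and Rarg, a retinoic acid receptor gene. No chance level was computed for such stretches. On single chromosomes the share of higher genes ran from 9.34% (chromosome X) to 15.98% (chromosome 10) of tested genes, leaving out the mitochondrial and Y chromosomes.

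The promoters of the 3 lower and 3 higher genes with the smallest p among the complex, receptor and progenitor lists are printed because the LMO2 complex is known to sit on E-box and GATA letters. Each window is the 250 bases before the annotated start, from RefSeq on GRCm38.p6, 5′ to 3′ on the gene's strand. Capitals mark the E-box letters CANNTG, which read the same on both strands, and the letters AGATAA of the GATA factors on either strand. The windows lie on the minus strand at chr9:44980432-44980681 (Cd3g), chr9:45009612-45009861 (Cd3e), chr17:46763713-46763962 (Ptcra), chr8:122699110-122699359 (Cbfa2t3), chr12:12941837-12942086 (Mycn) and chr16:95586594-95586843 (Erg). The 3 lower genes come first and the 3 higher genes follow.
Cd3g: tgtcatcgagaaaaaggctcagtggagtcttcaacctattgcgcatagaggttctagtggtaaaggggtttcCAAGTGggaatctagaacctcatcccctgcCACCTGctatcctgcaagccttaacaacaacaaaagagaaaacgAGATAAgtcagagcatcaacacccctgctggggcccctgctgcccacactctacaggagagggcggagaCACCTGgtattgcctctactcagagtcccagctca
Cd3e: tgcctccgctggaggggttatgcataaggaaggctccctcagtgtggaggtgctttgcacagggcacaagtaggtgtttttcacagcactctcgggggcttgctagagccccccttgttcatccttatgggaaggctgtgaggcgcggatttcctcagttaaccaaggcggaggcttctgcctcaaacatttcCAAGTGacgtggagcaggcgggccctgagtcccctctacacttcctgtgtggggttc
Ptcra: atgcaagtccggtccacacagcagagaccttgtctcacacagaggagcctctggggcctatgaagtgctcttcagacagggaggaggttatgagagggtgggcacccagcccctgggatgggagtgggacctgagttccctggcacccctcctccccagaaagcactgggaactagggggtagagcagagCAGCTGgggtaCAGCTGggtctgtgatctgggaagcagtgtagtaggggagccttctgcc
Cbfa2t3: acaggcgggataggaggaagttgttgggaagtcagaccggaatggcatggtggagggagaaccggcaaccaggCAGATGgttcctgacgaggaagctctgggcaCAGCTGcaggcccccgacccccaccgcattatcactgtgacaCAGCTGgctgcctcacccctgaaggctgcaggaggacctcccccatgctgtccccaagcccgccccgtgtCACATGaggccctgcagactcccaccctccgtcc
Mycn: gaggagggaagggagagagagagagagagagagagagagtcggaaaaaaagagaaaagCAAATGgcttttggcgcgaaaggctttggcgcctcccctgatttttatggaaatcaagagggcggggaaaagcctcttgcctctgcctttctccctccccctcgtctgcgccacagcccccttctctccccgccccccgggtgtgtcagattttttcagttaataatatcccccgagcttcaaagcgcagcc
Erg: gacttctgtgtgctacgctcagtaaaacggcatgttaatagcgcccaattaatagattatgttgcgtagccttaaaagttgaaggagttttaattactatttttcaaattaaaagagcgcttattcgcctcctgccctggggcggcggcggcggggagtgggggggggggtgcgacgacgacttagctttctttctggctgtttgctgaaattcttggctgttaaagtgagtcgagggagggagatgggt
The Cd3g window holds 3 E-box matches and 1 match for GATA factors, the only one in the 6 windows, and Ptcra holds 2 E-box matches of the form CAGCTG. Cbfa2t3 holds 4 E-box matches, Cd3e and Mycn 1 each, and Erg none. An E-box match stood in 66.2% of all 32851 promoter windows of that length, in 57.9% of windows of tested genes, in 58.9% of those of higher genes and in 56.0% of those of lower genes. For AGATAA the shares were 9.99, 6.17, 6.81 and 4.96% in the same order. A match describes letters and not binding, and 10166 tested genes had a window in the RefSeq table. The table holds 2 windows for Cbfa2t3 and 3 for Erg, of which 1 is shown.

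Of 28 tested kinases and adaptors downstream of the receptor, 10 were higher and 4 lower, against 13.3% of all genes higher and 12% lower, with a median fold of 0.401. These higher and lower counts became 5 and 1 without wild-type replicate 1, 7 and 2 without transgenic replicate 2, 8 and 1 without transgenic replicate 3, and 6 and 2 with the unnamed feature's share in the fit. Lat, the membrane scaffold of the receptor, stood at 788 and 814 CPM in wild-type and 571, 296 and 256 CPM in transgenic libraries (log2 fold change -1.097 ± 0.29, adjusted p = 0.0104). Sh2d1a, the adaptor SAP, stood at 55.5 and 52.95 CPM in wild-type and 18.7, 12.1 and 3.65 CPM in transgenic libraries (log2 fold change -2.22 ± 0.398, adjusted p = 0.000845). The receptor kinases split. Zap70 was lower (36.3 and 40.3 CPM in wild-type and 31.2, 25.1 and 18.01 CPM in transgenic libraries, -0.62 ± 0.21), and Syk, which serves in its place in early thymocytes, was higher (131 and 117 CPM in wild-type and 234, 273 and 294 CPM in transgenic libraries, 1.104 ± 0.18). Lck, the first kinase of the cascade, stood at 1292 and 1395 CPM in wild-type and 1111, 867 and 781 CPM in transgenic libraries and missed the threshold (adjusted p = 0.0563). The surface receptors Cd5 and Cd6, which dampen the signal, stood at 72.8, 61.03 and 60.9 CPM in transgenic against 15.4 and 18.8 CPM in wild-type libraries and at 119.5, 130.4 and 112 CPM in transgenic against 31.6 and 31.2 CPM in wild-type libraries. Both were higher (1.93 ± 0.23 and 1.94 ± 0.17), as was the adaptor Lcp2 (0.93 ± 0.18), which encodes SLP-76. In other fits the call ended for Lat and Zap70 without wild-type replicate 1, transgenic replicate 2 or transgenic replicate 3 or with the unnamed feature's share in the fit, and for Zap70 without wild-type replicate 2.

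Of 25 tested T lineage factors, 6 were higher and 4 lower (median 0.06), while 13.3% and 12% of all genes were. Tcf7, the factor that starts the T lineage programme under Notch, stood at 1663 and 1518 CPM in wild-type and 1616, 1773 and 1575 CPM in transgenic libraries, with overlapping groups and adjusted p = 0.875. Bcl11b, which closes commitment, stood at 800.1 and 785 CPM in wild-type and 488, 675 and 541 CPM in transgenic libraries. Every transgenic value of Bcl11b lay below both wild-type values, and the gene did not pass the test (adjusted p = 0.0669). Ets2 stood at 36.7 and 48.3 CPM in wild-type and 11.7, 13.8 and 11.2 CPM in transgenic libraries (log2 fold change -1.798 ± 0.19, adjusted p = 3.07e-06), and Spib, an ETS factor of early thymocytes and dendritic cells, at 46.3 and 46.4 CPM in wild-type and 15.2, 12.7 and 11.1 CPM in transgenic libraries (-1.83 ± 0.32). Bcl6, a repressor that follicular helper cells need, stood at 1.33 and 3.01 CPM in wild-type and 31.8, 45.6 and 32.1 CPM in transgenic libraries (log2 fold change 4.07 ± 0.44, adjusted p = 3.38e-06). Ikzf2, which encodes Helios, had 119 and 131 CPM in wild-type and 271, 518 and 493 CPM in transgenic libraries (1.77 ± 0.24), and Runx3 and Tox, regulators of later T cell fates, were higher as well (1.41 ± 0.26 and 1.397 ± 0.25). Notch1, the receptor that instructs the T lineage, was named after its values were seen. It stood at 789 and 1005 CPM in wild-type and 793, 2227 and 1996 CPM in transgenic libraries, with transgenic replicate 1 beside the wild-type libraries and adjusted p = 0.067.

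Of 20 tested progenitor factors, 12 were higher and 2 lower, against 13.3% and 12% of all genes, with a median fold of 1.17. Higher and lower counts were 9 and 0 without wild-type replicate 1 or with the unnamed feature's share in the fit. Spi1, which encodes PU.1, stood at 13.98 and 3.61 CPM in wild-type and 84.5, 68.4 and 74.4 CPM in transgenic libraries (log2 fold change 3.099 ± 0.703, adjusted p = 0.005). Hhex, a homeobox gene of progenitors, stood at 18.9 and 9.93 CPM in wild-type and 236, 213 and 211 CPM in transgenic libraries (log2 fold change 3.93 ± 0.67, adjusted p = 0.000953). By ratio the wild-type libraries of both genes differed more from each other than the transgenic ones did, and the groups did not overlap. Gfi1b, a repressor of erythroid and megakaryocyte precursors, was read at 0.531 and 1.404 CPM in wild-type and 12.2, 10.3 and 9.53 CPM in transgenic libraries (log2 fold change 3.46 ± 0.63, adjusted p = 0.000586). Mycn, the MYC relative of stem cells, stood at 12.4 and 21.8 CPM in wild-type and 117, 78.6 and 70.3 CPM in transgenic libraries (log2 fold change 2.38 ± 0.33, adjusted p = 6.05e-05). Erg, an ETS factor of stem cells, stood at 63.3 and 42.5 CPM in wild-type and 144, 148 and 161 CPM in transgenic libraries (log2 fold change 1.51 ± 0.22, adjusted p = 8.95e-05). Nfe2, a factor of megakaryocytes, stood at 471, 367 and 360.4 CPM in transgenic against 94.4 and 52.7 CPM in wild-type libraries (2.44 ± 0.35), and Runx2 at 98.3, 136 and 133 CPM in transgenic against 40.2 and 32.5 CPM in wild-type libraries (1.75 ± 0.34). Mef2c, a factor of lymphoid progenitors, stood at 11.1 and 8.22 CPM in wild-type and 9.43, 14.2 and 18.7 CPM in transgenic libraries (adjusted p = 0.428). Irf8, a factor of dendritic cell and monocyte precursors, was lower at 2.36, 2.42 and 2.22 CPM in transgenic against 7.52 and 6.32 CPM in wild-type libraries (-1.57 ± 0.41), and Hoxa7, named after its values were seen, was lower too (-1.44 ± 0.37). Meis1, Hoxa10, Cebpa and Hlf had too few reads to be tested. The threshold was missed for Irf8 and Hoxa7 without wild-type replicate 1, and for Spi1, Irf8 and Hoxa7 with the unnamed feature's share in the fit.

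**Figure D3:**
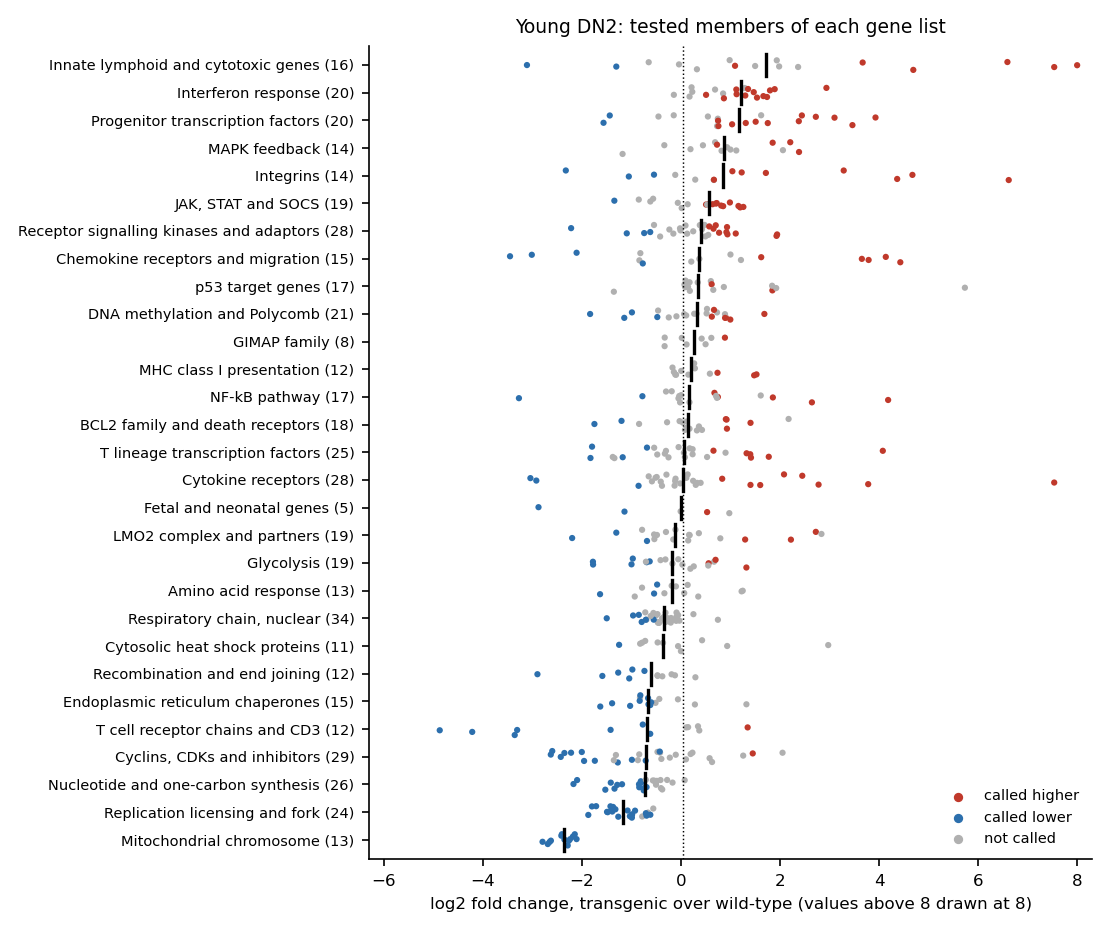
Log2 fold change of transgenic over wild-type for each tested member of 29 gene lists (number tested in brackets), with red for called higher, blue for called lower and grey for not called. The bar is the list's median and the dotted line the median over all tested genes (0.03), and the medians run from -2.36 (mitochondrial chromosome) to 1.71 (innate lymphoid and cytotoxic genes).

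Genes of innate lymphoid and cytotoxic cells were higher in 6 and lower in 2 of 16 tested members, against 13.3% and 12% of all genes. Their median fold was 1.71, or 1.71 with the 3 genes that had no wild-type read at their bound. The counts of higher and lower members were 4 and 1 without wild-type replicate 1, 5 and 1 without transgenic replicate 1 or transgenic replicate 2, and 2 and 1 with the unnamed feature's share in the fit. Only 16 of 27 members had enough reads for a test, and a gene silent in wild-type could pass that filter through the transgenic libraries alone. Gzmb, the protease granzyme B, had no read in either wild-type library and 40.9, 28.2 and 39.7 CPM in transgenic libraries (at least 264-fold higher, adjusted p = 4.89e-06). Granzyme A moved the other way, with Gzma at 217 and 191 CPM in wild-type and 36.6, 23.2 and 10.4 CPM in transgenic libraries (log2 fold change -3.11 ± 0.37, adjusted p = 2.4e-05). Zbtb16, which encodes the innate lymphocyte factor PLZF, stood at 0 and 0.401 CPM in wild-type and 3.58, 4.51 and 7.83 CPM in transgenic libraries (log2 fold change 4.69 ± 1.07, adjusted p = 0.00537). The chains of the interleukin 18 receptor were both higher, with Il18rap at 1.86 and 0.301 CPM in wild-type and 6.22, 14.2 and 21.9 CPM in transgenic libraries (3.67 ± 0.78) and Il18r1 at no wild-type read (at least 17.1-fold higher). Klrd1, a chain of the NKG2 receptors, had no wild-type read and 1.697, 1.29 and 0.783 CPM in transgenic libraries. Nkg7, a granule membrane protein, stood at 205, 154 and 172 CPM in transgenic against 88.3 and 77.8 CPM in wild-type libraries (1.09 ± 0.297). Ncr1, Klrk1 and Gzmc were at 0 in all 5 libraries. Calls were lost for Klrd1 and Nkg7 without wild-type replicate 1, for Nkg7 without wild-type replicate 2, and for Zbtb16, Il18rap, Il18r1 and Nkg7 with the unnamed feature's share in the fit.

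Cytokine receptor genes counted 8 higher and 3 lower of 28 tested, where all genes gave 13.3% and 12%, with a median fold of 0.04. Higher and lower members numbered 5 and 3 with the unnamed feature's share in the fit. Ifngr1, the ligand-binding chain for interferon gamma, stood at 868 and 587 CPM in wild-type and 101, 86.6 and 77.2 CPM in transgenic libraries (log2 fold change -3.04 ± 0.205, adjusted p = 3.63e-08). Il10ra, the interleukin 10 receptor chain, stood at 249.96, 263 and 254 CPM in transgenic against 32.6 and 41.9 CPM in wild-type libraries (log2 fold change 2.78 ± 0.26, adjusted p = 1.07e-06). Il4ra, the chain for interleukins 4 and 13, stood at 21.7 and 11.8 CPM in wild-type and 80.6, 94.8 and 99.6 CPM in transgenic libraries (2.45 ± 0.39), and Tgfbr2, a receptor of TGF-beta, at 40.6 and 40.01 CPM in wild-type and 85.3, 139.8 and 142 CPM in transgenic libraries (1.599 ± 0.21). Csf2rb, the shared chain of the granulocyte-macrophage receptors, was read at 0 and 0.501 CPM in wild-type and 3.02, 1.93 and 5.48 CPM in transgenic libraries (3.78 ± 1.23). The kinases and STAT factors behind these receptors were higher in 11 and lower in 1 of 19 members (median 0.56), against 13.3% of all genes higher. Stat3 stood at 207 and 195 CPM in wild-type and 417, 479 and 484 CPM in transgenic libraries (log2 fold change 1.19 ± 0.18, adjusted p = 0.000132). Stat4, which relays interleukin 12, stood at 71.3 and 72.5 CPM in wild-type and 171, 138 and 173 CPM in transgenic libraries (1.16 ± 0.21), and Pim1, a kinase gene that STAT factors switch on, at 114 and 111 CPM in wild-type and 263, 280.04 and 264 CPM in transgenic libraries (1.26 ± 0.18). Jak1, Jak2 and Tyk2 had folds of 0.56 ± 0.17, 0.81 ± 0.23 and 0.85 ± 0.23. Socs1, a feedback inhibitor of these kinases, was the lower member, with 47.3 and 39.7 CPM in wild-type and 19.9, 14.7 and 16.6 CPM in transgenic libraries (-1.35 ± 0.35). Stat5a, which relays interleukin 7, stood at 238 and 235 CPM in wild-type and 246, 265 and 267 CPM in transgenic libraries and did not pass the test (adjusted p = 0.595). Other fits gave higher and lower counts of 4 and 0 without wild-type replicate 1, 7 and 1 without wild-type replicate 2, 6 and 1 without transgenic replicate 2 or transgenic replicate 3, and 5 and 0 with the unnamed feature's share in the fit. In other fits the call ended for Csf2rb, Jak1, Jak2, Tyk2 and Socs1 without wild-type replicate 1 or with the unnamed feature's share in the fit, for Jak1 without wild-type replicate 2, and for Csf2rb, Jak1 and Jak2 without transgenic replicate 2 or transgenic replicate 3.

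Of 14 tested integrin genes, 8 were higher and 3 lower (median 0.85), against 13.3% and 12% of all genes. These higher and lower counts became 7 and 0 without wild-type replicate 2, and 6 and 1 with the unnamed feature's share in the fit. Itgb7, the beta subunit that takes lymphocytes to the gut, stood at 19.02 and 9.93 CPM in wild-type and 368, 368 and 376 CPM in transgenic libraries (log2 fold change 4.67 ± 0.38, adjusted p = 2.15e-07). The transgenic libraries were nearly equal, and all lay above both wild-type libraries. Itgam, the CD11b chain of myeloid cells, stood at 1.24 and 1.605 CPM in wild-type and 25.7, 25.6 and 37.1 CPM in transgenic libraries (log2 fold change 4.37 ± 0.49, adjusted p = 5.31e-06), and Itgax, the CD11c chain, at 2.65 and 1.504 CPM in wild-type and 16.5, 23.2 and 21.8 CPM in transgenic libraries (3.29 ± 0.58). Itga2, a collagen receptor chain, stood at 0.0885 and 0 CPM in wild-type and 1.04, 6.92 and 9.79 CPM in transgenic libraries (112-fold, 95% counting interval 19.8 to 4462 by reads). Itgb3 and Itga2b, which pair on platelets, were higher (1.22 ± 0.27 and 1.71 ± 0.59). Itgae, the CD103 chain that pairs with Itgb7, was lower at 1.04, 0.805 and 0.783 CPM in transgenic against 2.57 and 6.52 CPM in wild-type libraries (-2.33 ± 0.56), as was Itgb1 (-0.55 ± 0.17). Itga4, the partner of both beta chains, stood at 907 and 1027 CPM in wild-type and 739, 1753 and 2099 CPM in transgenic libraries, where transgenic replicate 1 lay below the wild-type libraries and the other two above (adjusted p = 0.125). Of 15 chemokine receptor and migration genes, 5 were higher and 4 lower, against 13.3% and 12% of all genes. Higher and lower counts were 2 and 2 without wild-type replicate 1, 3 and 3 without transgenic replicate 2 or transgenic replicate 3, and 2 and 1 with the unnamed feature's share in the fit. Ccr9, which guides thymocytes, stood at 46.9 and 42.5 CPM in wild-type and 3.11, 6.76 and 2.74 CPM in transgenic libraries (log2 fold change -3.45 ± 0.56, adjusted p = 0.000609). Klf2, the factor that lets mature T cells leave the thymus, stood at 81.1, 41.2 and 38.5 CPM in transgenic against 3.27 and 2.81 CPM in wild-type libraries (log2 fold change 4.13 ± 0.57, adjusted p = 6.87e-05), and its target S1pr1, the exit receptor, at 4.995, 4.99 and 4.57 CPM in transgenic against 0 and 0.702 CPM in wild-type libraries (3.79 ± 1.21). Cxcr4 stood at 364 and 292 CPM in wild-type and 265, 145 and 138 CPM in transgenic libraries and missed the threshold (adjusted p = 0.0571). The threshold was missed for Itga2b, Itgb1 and S1pr1 without wild-type replicate 1 or transgenic replicate 2, for Itga2b, Itgae and Itgb1 without wild-type replicate 2, for Itga2b and Itgb1 without transgenic replicate 1, for Itga2b and S1pr1 without transgenic replicate 3, and for Itga2b, Itgae, Itgb1 and S1pr1 with the unnamed feature's share in the fit.

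Most genes of DNA replication were lower. Of 24 tested replication genes, 21 were lower and none higher, against 12% and 13.3% of all genes, with a median fold of -1.17. The counts of higher and lower members were 0 and 13 without wild-type replicate 1, and 0 and 9 with the unnamed feature's share in the fit. Mcm10, which starts the fork, stood at 81.3 and 80.7 CPM in wild-type and 24.4, 14.98 and 26.6 CPM in transgenic libraries (log2 fold change -1.87 ± 0.32, adjusted p = 0.000369). Cdc45 and Gins1, parts of the helicase that opens DNA, stood at 67.9 and 72.9 CPM in wild-type and 24.2, 15.1 and 24.7 CPM in transgenic libraries and at 60.6 and 43.8 CPM in wild-type and 21.9, 10.1 and 12.5 CPM in transgenic libraries. Transgenic replicate 2 was the lowest library for all 3 genes. Orc1, which marks origins, and Lig1 and Fen1, which join and trim the new strand, had folds of -1.48 ± 0.25, -1.495 ± 0.35 and -1.43 ± 0.24. The helicase subunit Mcm2 stood at 196 and 217 CPM in wild-type and 108, 139.8 and 172 CPM in transgenic libraries and did not pass the test (adjusted p = 0.197). Of 29 cyclins, kinases, E2F factors and inhibitors, 12 were lower and 1 higher, against 12% of all genes lower. Higher and lower members numbered 2 and 12 without transgenic replicate 1, and 1 and 7 with the unnamed feature's share in the fit. Cdk1 stood at 194 and 155 CPM in wild-type and 47.03, 14.98 and 34.2 CPM in transgenic libraries (log2 fold change -2.43 ± 0.504, adjusted p = 0.0032), and its partners Ccnb1 and Ccna2 at 85.4 and 62.8 CPM in wild-type and 16.02, 4.19 and 15.9 CPM in transgenic libraries and at 192 and 209.9 CPM in wild-type and 53.9, 18.4 and 44.8 CPM in transgenic libraries. E2f2, an activator of S phase genes, stood at 202 and 201 CPM in wild-type and 38.1, 27.9 and 31.3 CPM in transgenic libraries (log2 fold change -2.63 ± 0.202, adjusted p = 1.12e-07). The D cyclins, which start the cycle, did not pass the test, with folds of 0.19 ± 0.46 for Ccnd1, -0.42 ± 0.25 for Ccnd2 and 0.098 ± 0.21 for Ccnd3. Mki67, a nuclear protein made by dividing cells, stood at 358, 194 and 368 CPM in transgenic against 1975 and 1813 CPM in wild-type libraries (-2.63 ± 0.51). Calls were lost for Lig1 and Ccna2 with the unnamed feature's share in the fit.

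Of 26 genes that make nucleotides and carry single carbons, 14 were lower and none higher (median -0.73), against 12% and 13.3% of all genes. Other fits gave higher and lower counts of 0 and 8 without wild-type replicate 2, and 0 and 5 with the unnamed feature's share in the fit. Tyms, which makes thymidylate, stood at 142 and 120.3 CPM in wild-type and 38.7, 18.8 and 29.2 CPM in transgenic libraries (log2 fold change -2.17 ± 0.29, adjusted p = 3.75e-05). Tk1, the salvage kinase of thymidine, stood at 89.4 and 90.5 CPM in wild-type and 29.7, 12.9 and 19.8 CPM in transgenic libraries (-2.099 ± 0.29). Rrm1 and Rrm2, the subunits of ribonucleotide reductase, had folds of -1.42 ± 0.33 and -1.53 ± 0.42. The mitochondrial folate gene Mthfd2 stood at 57.6 and 53.8 CPM in wild-type and 29.8, 16.7 and 18.8 CPM in transgenic libraries (-1.34 ± 0.23). The serine genes Shmt1, Shmt2 and Psat1 were lower, with folds of -1.19 ± 0.23, -0.85 ± 0.19 and -0.84 ± 0.26. In other fits the call ended for Rrm2 and Psat1 without wild-type replicate 2 or transgenic replicate 2, and for Rrm1, Rrm2, Shmt2 and Psat1 with the unnamed feature's share in the fit.

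All 13 protein-coding genes of the mitochondrial chromosome were lower, with folds between -2.80 and -2.11. COX1, a subunit of the oxygen-reducing complex, stood at 47067 and 43974 CPM in wild-type and 13743, 9849 and 8024 CPM in transgenic libraries (log2 fold change -2.11 ± 0.39, adjusted p = 0.000666), and CYTB, of the complex before it, at 25758 and 23386 CPM in wild-type and 6951, 4736 and 3621 CPM in transgenic libraries (-2.27 ± 0.399). The share of reads from the mitochondrial chromosome was 13.4 and 12.2% in the wild-type pair, and 3.75, 2.25 and 1.96% in the transgenic libraries. This gives 12.8 ± 0.867% (SD, n = 2) against 2.65 ± 0.956% (SD, n = 3), and an exact two-sided permutation test gave p = 0.1, the smallest that 3 against 2 libraries allow, so that p under 0.05 could not be reached. With the unnamed feature left out of the total, the difference was -9.96 percentage points against -10.1 with it. Of 34 respiratory chain genes in the nucleus, 6 were lower and none higher, against 12% and 13.3% of all genes. Their median fold was -0.34. These higher and lower counts became 0 and 0 without wild-type replicate 1 or with the unnamed feature's share in the fit, 1 and 5 without wild-type replicate 2, 0 and 15 without transgenic replicate 1, and 0 and 1 without transgenic replicate 2 or transgenic replicate 3. Cycs, the electron carrier cytochrome c, stood at 18.2 and 6.52 CPM in wild-type and 4.901, 3.704 and 4.44 CPM in transgenic libraries (-1.501 ± 0.46), and Ndufv2, a core subunit of complex I, at 198 and 124 CPM in wild-type and 109, 61.8 and 75.7 CPM in transgenic libraries (-0.97 ± 0.23). Ndufa1, Ndufa2 and Ndufa4, further complex I and chain subunits, did not pass the test, with folds of -0.47 ± 0.27, -0.46 ± 0.27 and -0.38 ± 0.28. In glycolysis 6 of 19 genes were lower and 3 higher, against 12% and 13.3% of all genes. Higher and lower counts were 1 and 4 without wild-type replicate 1 or transgenic replicate 3, 1 and 3 without transgenic replicate 2, and 1 and 2 with the unnamed feature's share in the fit. Pfkp, a phosphofructokinase, stood at 56.3 and 41.7 CPM in wild-type and 14.9, 15.5 and 12.5 CPM in transgenic libraries (log2 fold change -1.78 ± 0.19, adjusted p = 4.16e-06), and Slc16a1, the lactate carrier, at 177 and 198 CPM in wild-type and 60.04, 57.3 and 46.2 CPM in transgenic libraries (log2 fold change -1.78 ± 0.18, adjusted p = 1.5e-06). Aldoa, an aldolase, was higher at 363, 295 and 291 CPM in transgenic against 139 and 114 CPM in wild-type libraries (1.32 ± 0.22), as was Hk1 (0.697 ± 0.22), a hexokinase. The glucose carrier Slc2a1 stood at 7.34 and 13.3 CPM in wild-type and 11.03, 18.7 and 19.7 CPM in transgenic libraries, with overlapping groups (adjusted p = 0.138). The threshold was missed for Cycs, Ndufv2 and Hk1 without wild-type replicate 1 or with the unnamed feature's share in the fit, for Hk1 without wild-type replicate 2, and for Cycs and Hk1 without transgenic replicate 2 or transgenic replicate 3.

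Protein folding genes of the secretory pathway were lower in 9 of 15 members and higher in none (median -0.66), against 12% of all genes lower. The counts of higher and lower members were 0 and 5 without wild-type replicate 1, and 0 and 4 with the unnamed feature's share in the fit. Hsp90b1, the chaperone GRP94, stood at 899 and 726 CPM in wild-type and 342, 282 and 304 CPM in transgenic libraries (log2 fold change -1.39 ± 0.19, adjusted p = 4.14e-05), and Sdf2l1 at 52.4 and 36.4 CPM in wild-type and 19.04, 11.8 and 11.9 CPM in transgenic libraries (-1.63 ± 0.25). Xbp1, the factor that induces such genes, stood at 196 and 187 CPM in wild-type and 123, 96.6 and 101 CPM in transgenic libraries (-0.84 ± 0.17). Hspa5, the chaperone BiP, stood at 684 and 534 CPM in wild-type and 305, 349 and 374 CPM in transgenic libraries and missed the threshold (adjusted p = 0.0588). Of 11 other heat shock genes 1 was lower, against 12% of all genes. It was the mitochondrial chaperonin gene Hspd1 at 325 and 271 CPM in wild-type and 134, 114 and 127 CPM in transgenic libraries (-1.25 ± 0.19). The inducible genes Hspa1a and Hspa1b, which stress on the cells raises, reached at most 0.913 and 1.29 CPM in any of the 5 libraries. Among amino acid response genes 3 of 13 were lower, against 12% of all genes. Higher and lower members numbered 0 and 1 without wild-type replicate 1 or wild-type replicate 2 or transgenic replicate 2 or transgenic replicate 3 or with the unnamed feature's share in the fit. Slc7a5, the carrier of large amino acids, stood at 117 and 124 CPM in wild-type and 34.6, 37.7 and 44.2 CPM in transgenic libraries (log2 fold change -1.64 ± 0.21, adjusted p = 2.45e-05), while Atf4, the master factor of that response, did not pass the test (0.35 ± 0.21, adjusted p = 0.246).

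Of 21 DNA methylation and Polycomb genes, 6 were higher and 4 lower, against 13.3% of all genes higher and 12% lower. Other fits gave higher and lower counts of 1 and 3 without wild-type replicate 1 or with the unnamed feature's share in the fit. Dnmt1, the maintenance methyltransferase, stood at 518 and 701 CPM in wild-type and 269, 253 and 303 CPM in transgenic libraries (-1.15 ± 0.21), and its recruiter Uhrf1 at 634 and 597 CPM in wild-type and 177, 154 and 186 CPM in transgenic libraries (log2 fold change -1.84 ± 0.197, adjusted p = 3.38e-06). Dnmt3a, which methylates new sites, stood at 169 and 193 CPM in wild-type and 254, 379.9 and 384 CPM in transgenic libraries (0.91 ± 0.201). Ezh2, the Polycomb methyltransferase of cycling cells, stood at 311 and 336 CPM in wild-type and 188, 134 and 166 CPM in transgenic libraries (-0.99 ± 0.201), and its relative Ezh1 at 29.01 and 58.4 CPM in wild-type and 129, 145 and 147 CPM in transgenic libraries (1.68 ± 0.24). Calls were lost for Dnmt3a without wild-type replicate 1 or with the unnamed feature's share in the fit.

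Interferon response genes were higher in 13 of 20 members and lower in none, with a median fold of 1.204, against 13.3% of all genes higher. These higher and lower counts became 7 and 0 without wild-type replicate 1 or wild-type replicate 2, 8 and 0 without transgenic replicate 3, and 6 and 0 with the unnamed feature's share in the fit. Rsad2, the antiviral protein viperin, stood at 3.98 and 7.32 CPM in wild-type and 28.1, 38.004 and 63.5 CPM in transgenic libraries (log2 fold change 2.94 ± 0.44, adjusted p = 0.000117). Irf7, the factor that amplifies the response, stood at 34.2 and 33.8 CPM in wild-type and 100.5, 79.6 and 102 CPM in transgenic libraries (log2 fold change 1.47 ± 0.24, adjusted p = 0.000246). Isg15 had 24.4 and 23.8 CPM in wild-type and 65.5, 40.9 and 50.6 CPM in transgenic libraries (1.12 ± 0.27) and Ifit1 12.3 and 11.6 CPM in wild-type and 41.6, 29.6 and 42.4 CPM in transgenic libraries (1.66 ± 0.41). For both, transgenic replicate 2 was the lowest transgenic library. In antigen presentation, H2-D1 and Nlrc5 were higher (1.48 ± 0.19 and 1.52 ± 0.32) and H2-K1 too (0.74 ± 0.26), whereas B2m and Tap1 did not pass the test (adjusted p = 0.117 and 0.275). Reads of H2-K1 and H2-D1 can be split, since the genes are near copies. In other fits the call ended for Ifit1 and H2-K1 without wild-type replicate 1, for H2-K1 without wild-type replicate 2, transgenic replicate 1 or transgenic replicate 2, and for Ifit1, Nlrc5 and H2-K1 with the unnamed feature's share in the fit.

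Of 18 genes of the BCL2 family and death receptors, 4 were higher and 2 lower, against 13.3% of all genes higher and 12% lower. Higher and lower counts were 0 and 0 without wild-type replicate 1, 2 and 1 without wild-type replicate 2, 5 and 1 without transgenic replicate 1, 1 and 0 without transgenic replicate 2 or with the unnamed feature's share in the fit, and 2 and 0 without transgenic replicate 3. Bcl2, a protector that interleukin 7 maintains, stood at 208 and 162 CPM in wild-type and 71.1, 75.7 and 94.3 CPM in transgenic libraries (log2 fold change -1.203 ± 0.41, adjusted p = 0.0416). Mcl1, another protector, stood at 152 and 147 CPM in wild-type and 201, 326 and 324 CPM in transgenic libraries (log2 fold change 0.92 ± 0.24, adjusted p = 0.00934), and the death-promoting genes Bmf and Bbc3 were higher (0.904 ± 0.296 and 1.403 ± 0.44). Among 17 p53 targets 2 were higher, a share below the 13.3% of all genes. These were Sesn1 and Sesn2 (0.62 ± 0.18 and 1.84 ± 0.38). The counts of higher and lower members were 1 and 0 without wild-type replicate 1 or wild-type replicate 2 or with the unnamed feature's share in the fit. Cdkn1a, the cycle inhibitor p21, stood at 57.7 and 48.2 CPM in wild-type and 17.6, 22.1 and 22.4 CPM in transgenic libraries, below wild-type in every transgenic library, and missed the threshold (adjusted p = 0.0682). NF-kB genes counted 5 higher and 2 lower of 17, against 13.3% and 12% of all genes. Higher and lower members numbered 2 and 2 without wild-type replicate 1, and 3 and 2 with the unnamed feature's share in the fit. Bcl3, a nuclear cofactor, stood at 0.354 and 0.702 CPM in wild-type and 10.5, 9.66 and 9.004 CPM in transgenic libraries (log2 fold change 4.18 ± 0.64, adjusted p = 0.000139), and the signalling adaptor Traf1 at 6.103 and 7.72 CPM in wild-type and 1.32, 0.322 and 0.261 CPM in transgenic libraries (log2 fold change -3.27 ± 0.54, adjusted p = 0.00027). Of 14 genes of MAPK feedback, 4 were higher, against 13.3% of all genes. Among them were the phosphatase Dusp5 at 7.43 and 13.2 CPM in wild-type and 31.8, 73.8 and 56.4 CPM in transgenic libraries (2.38 ± 0.58) and Rasa3, which switches RAS off, at 39.2 and 60.5 CPM in wild-type and 212, 228 and 249.9 CPM in transgenic libraries (2.21 ± 0.26). Other fits gave higher and lower counts of 2 and 0 without wild-type replicate 1 or with the unnamed feature's share in the fit. Dusp1 stood at 16.4 and 10.5 CPM in wild-type and 13.1, 90.3 and 65.9 CPM in transgenic libraries, high in transgenic replicates 2 and 3 alone (adjusted p = 0.2). Of the imprinted and fetal genes, H19 stood at 305 and 300.1 CPM in wild-type and 54.4, 36.7 and 31.8 CPM in transgenic libraries (log2 fold change -2.88 ± 0.701, adjusted p = 0.00983), and Igf2bp3, an RNA-binding protein of fetal cells, at 67.1 and 78.1 CPM in wild-type and 87.4, 105 and 121 CPM in transgenic libraries (0.53 ± 0.18). The threshold was missed for Bcl2, Mcl1, Bmf, Bbc3, Sesn1, Dusp5 and Igf2bp3 without wild-type replicate 1, for Bcl2, Bmf, Sesn1 and Igf2bp3 without wild-type replicate 2, for Bcl2 without transgenic replicate 1, for Bcl2, Bmf, Bbc3 and Igf2bp3 without transgenic replicate 2, for Bcl2, Bmf and Igf2bp3 without transgenic replicate 3, and for Bcl2, Mcl1, Bmf, Sesn1, Dusp5, H19 and Igf2bp3 with the unnamed feature's share in the fit.

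Across the transcriptome, the higher genes held the larger folds. At least 4-fold changes were seen in 551 higher and 366 lower genes, and at least 8-fold changes in 337 and 123. Of the higher genes 97 had no read in wild-type, 4 of them at 5 CPM or more in transgenic cells, while 7 lower genes had no read in transgenic cells. These numbers set 2 wild-type against 3 transgenic libraries. Wild-type replicate 1 had reads in 13028 genes, against 15089 to 15680 in the other DN2 libraries. The part of this in the counts was not tested. A gene silent in 1 group passed the filter on low counts through other groups alone. Fitted folds of genes without reads in a group depend on the fit and are no bounds. In wild-type cells the median level was 53.9 CPM for the lower genes, 20.6 CPM for the higher genes and 26.9 CPM for all genes tested. In transgenic cells these medians were 22.6, 50.6 and 26.6 CPM. Median gene length was 3341 bases for higher, 2516 for lower and 2695 for all tested genes. Among pseudogenes 2.13% were higher and 12.2% lower, and among lncRNAs 9.76 and 7.505%.

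Among the largest folds, taken where the higher group averaged 5 CPM or more, were genes with few or no reads in the other group. Behind Gzmb stood Aox1, an aldehyde oxidase gene with no wild-type read and 23.4, 24.96 and 24.9 CPM in transgenic libraries (at least 172-fold higher). Lrrc4b, a synaptic adhesion gene, was at least 62.3-fold higher. Scn11a, a sodium channel gene, stood at 0 and 0.301 CPM in wild-type and 16.8, 16.9 and 17.1 CPM in transgenic libraries (119.9-fold, 95% counting interval 40.8 to 584), and Cd33, a sialic acid receptor of myeloid cells, at 0 and 0.301 CPM in wild-type and 5.47, 11.4 and 16.2 CPM in transgenic libraries (73.3-fold, 95% counting interval 24.8 to 358). Tle2, a corepressor gene, stood at 0 and 0.401 CPM in wild-type and 18.003, 10.1 and 9.66 CPM in transgenic libraries (5.95 ± 0.94). On the lower side, Slc5a9, a sugar cotransporter gene, stood at 25.9 and 49.5 CPM in wild-type and 1.79, 0.644 and 0.1305 CPM in transgenic libraries (log2 fold change -5.29 ± 0.77, adjusted p = 0.000353). Nrp1, the coreceptor neuropilin, stood at 58.1 and 66.2 CPM in wild-type and 4.62, 5.96 and 2.87 CPM in transgenic libraries (log2 fold change -3.802 ± 0.302, adjusted p = 1.37e-07). Pld4, a nuclease of endolysosomes, stood at 317 and 375 CPM in wild-type and 19.6, 17.7 and 13.05 CPM in transgenic libraries (log2 fold change -4.36 ± 0.38, adjusted p = 9.4e-07), and Ybx2, an RNA-binding protein of germ cells, at 45.6 and 37.5 CPM in wild-type and 2.54, 2.899 and 0.522 CPM in transgenic libraries (-4.38 ± 0.46). Cldn4, of tight junctions, and Epha2, an ephrin receptor, had folds of -4.604 ± 0.74 and -5.05 ± 0.83. Adamtsl2 stood at 0.885 and 11.4 CPM in wild-type and 0.189, 0 and 0.1305 CPM in transgenic libraries, where the wild-type libraries differed widely. Calls were lost for Adamtsl2 without wild-type replicate 2.

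Among the 10 higher genes of largest absolute difference, Adgrg1, the adhesion receptor GPR56, stood at 911 and 752 CPM in wild-type and 2426, 2897 and 2914 CPM in transgenic libraries (log2 fold change 1.72 ± 0.23, adjusted p = 3.83e-05). Scin, an actin-severing protein, rose from 41.7 and 30.9 to 714, 915 and 978 CPM (log2 fold change 4.58 ± 0.71, adjusted p = 0.000533). Flna, an actin crosslinker, stood at 184 and 212 CPM in wild-type and 644, 1090.2 and 1219 CPM in transgenic libraries (2.31 ± 0.33), and Adgrg3, another adhesion receptor, at 86.2 and 74.3 CPM in wild-type and 766, 555 and 589.5 CPM in transgenic libraries (2.99 ± 0.603). Myh9, a myosin heavy chain, and Macf1, which links actin to microtubules, had folds of 1.17 ± 0.23 and 1.64 ± 0.27. Atp1b3, a sodium pump subunit, stood at 366 and 282 CPM in wild-type and 1165, 951 and 936 CPM in transgenic libraries (1.65 ± 0.26). Kmt2d, a histone methyltransferase, and Zfp36l2, which destabilises messenger RNAs, had folds of 1.17 ± 0.37 and 1.21 ± 0.197. Malat1, a nuclear long RNA, stood at 447 and 492 CPM in wild-type and 673, 2444 and 1724 CPM in transgenic libraries, with transgenic replicate 1 nearest to wild-type (log2 fold change 1.78 ± 0.62, adjusted p = 0.0491). In other fits the call ended for Kmt2d and Malat1 without wild-type replicate 1, wild-type replicate 2, transgenic replicate 2 or transgenic replicate 3 or with the unnamed feature's share in the fit.

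**Figure D4:**
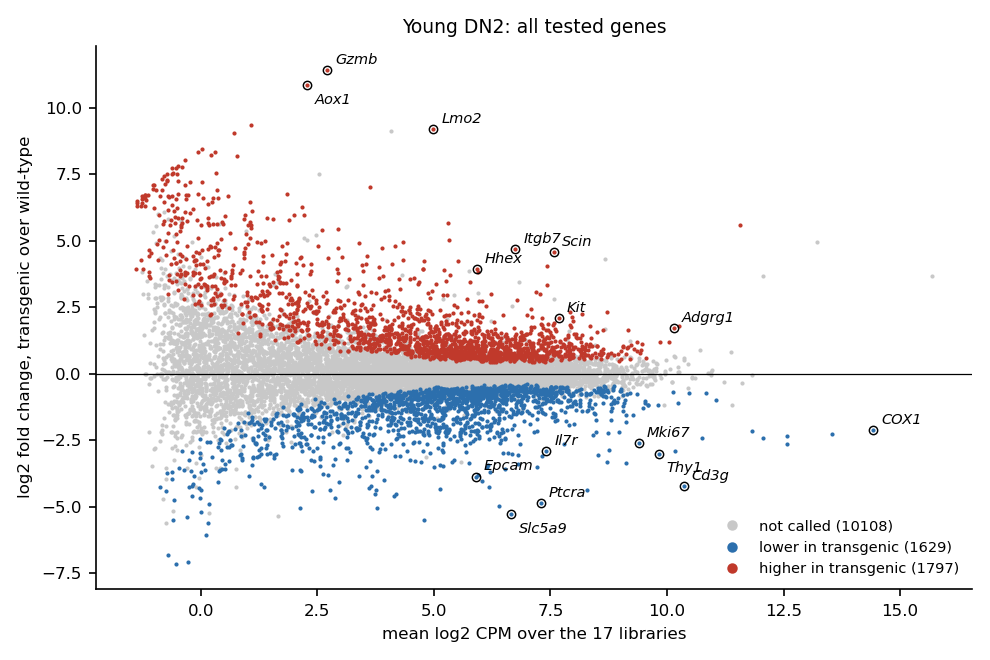
Log2 fold change of transgenic over wild-type young DN2 against the mean log2 CPM over the 17 libraries for the 13534 tested genes, with red for the 1797 called higher, blue for the 1629 called lower and grey for the rest. Circles name 16 genes, and the plotted folds of Gzmb and Aox1, which had no wild-type read, are fitted values and no bounds.

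The same contrast in young DN3a cells, partly from the same mice, was set beside the DN2 effect. The difference of the DN2 and DN3a effects was called in 2828 of 13534 genes (20.9%). Among the 3426 genes called in DN2, 379 were also called in DN3a in the same direction and 256 in the opposite one. All 256 had a called difference, which opposite calls nearly fix in advance. Receptor and recombination genes were among those whose DN2 effect was the larger. Cd3g moved by -0.77 ± 0.27 in DN3a (difference -3.44 ± 0.41, adjusted p = 3.19e-05) and Il7r by 0.14 ± 0.17 (difference -3.07 ± 0.26, adjusted p = 1.45e-06). Rag1 moved by -1.27 ± 0.25 (difference -1.63 ± 0.37, adjusted p = 0.0043). For Lyl1, Hhex and Itgb7 the difference was not called, with DN3a folds of 4.37 ± 0.61, 3.94 ± 0.64 and 4.03 ± 0.32. Of the interferon genes 13 of 20 had a called difference, as had 23 of 24 replication genes and all 13 genes of the mitochondrial chromosome. The replication genes had a median fold of 0.67 in DN3a against -1.17 in DN2, with 7 called higher and none lower in DN3a. Spi1 moved by -0.796 ± 0.76 in DN3a (difference 3.89 ± 1.01, adjusted p = 0.013), Mycn by -0.83 ± 0.28 (difference 3.21 ± 0.43, adjusted p = 8.98e-05) and Bcl6 by -0.42 ± 0.34 (difference 4.49 ± 0.54, adjusted p = 3.27e-05).

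Of the genes named here 21 were called in opposite directions at the 2 stages. For Pfkp the wild-type and transgenic means were 23.3 and 70.7 CPM in DN3a, against 48.99 and 14.3 CPM in DN2. Syk stood at 138 and 67.8 CPM in DN3a against 124 and 267 CPM in DN2. Zap70 stood at 37.7 and 127 CPM in DN3a against 38.3 and 24.8 CPM in DN2. The unnamed feature's share was 0.306 to 13.9% over the 6 young DN3a libraries. With its log2 share in the fit, 2309 differences were called, and without wild-type DN2 replicate 1 the number was 1667.

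**Figure D5:**
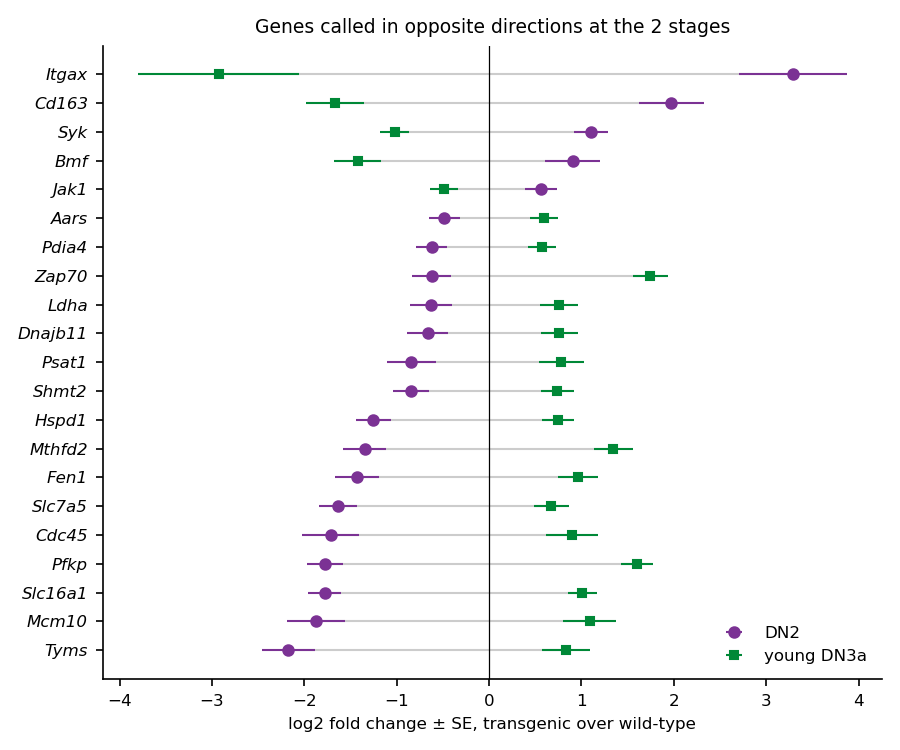
Log2 fold change ± SE of transgenic over wild-type in DN2 (purple circles) and young DN3a (green squares) for the 21 genes named here that were called in opposite directions. The 16 genes drawn with negative DN2 values include Tyms, Pfkp and Zap70, and the 5 with positive DN2 values include Syk and Itgax.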

How the data were processed

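RNA of sorted thymocytes was prepared with RNeasy Plus Micro kits, made into TruSeq libraries and read as single ends of 100 bases, per the labels' protocols. The deposited table holds raw counts per Entrez gene, and the submitters' processing notes name featureCounts and the build mm10. Not given in the sources used here are the aligner, the annotation and the strand. Of 27179 features, 1886 had no name in the reference tables.

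Counts from all 17 libraries were scaled by TMM and fitted with 1 mean per group in edgeR 4.0.16 (R 4.3.3) by robust quasi-likelihood. Genes passed edgeR's filter at a minimum count of 10 and a minimum total of 15, which left 13534 of 18760 genes with a read. Every adjusted p is from this fit, with Benjamini-Hochberg adjustment over all genes tested and a threshold of 0.05. The common biological coefficient of variation was 0.244. Within a group each library is a different mouse, but some mice gave a library of each stage. The fit had no term for the mouse and treated all 17 libraries as independent. The p-values therefore rest on a spread pooled over the groups, in which some mice are repeated. For stage differences they do not account for libraries that share a mouse. The fit was tested on simulated data.

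Levels use TMM-scaled CPM. Levels per kilobase divide by the length in the count table. Folds against a group without reads are bounds from a floor of 3 counts over that group, and with 1 to 3 reads a ratio with its 95% counting interval is given. Both cover counting error only.

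The members, gene lists and tests were chosen with earlier results of these data known. The genes named were Lmo2, then in each direction the 20 of largest fold and the 10 of largest CPM difference (called, non-overlapping, at least 5 CPM in the higher group, no predicted symbol or receptor segment), the first 3 members of each list, and up to 6 further called members per list by fold. Some of these are not reported here. Alternatives covered DESeq2 1.42.0, limma voom (3.58.1), scaling, filters, covariates, removed features, a replicate block, thresholds and leaving out each library. Promoters are from RefSeq on GRCm38.p6.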

Additional observations from a re-analysis of the deposited data

Results flagged for a closer look

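The genotype effect in young DN2 cells differed from that in young DN3a cells in 2828 genes by the interaction term of edgeR's quasi-likelihood test. Of the genes named here 21 were called in opposite directions at the 2 stages. Their differences, the DN2 effect minus the DN3a effect on the log2 scale, follow. They are no separate test, since opposite calls nearly fix a called difference in advance.

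In energy and amino acid metabolism the differences were -3.38 for Pfkp, -2.79 for the lactate carrier Slc16a1, -1.39 for the lactate dehydrogenase Ldha, -2.31 for the amino acid carrier Slc7a5, -1.63 for Psat1 and -1.07 for the alanyl-tRNA synthetase Aars. In nucleotide and one-carbon synthesis they were -3.01 for Tyms, -2.69 for Mthfd2 and -1.59 for Shmt2. In replication they were -2.96 for Mcm10, -2.61 for Cdc45 and -2.38 for Fen1. For the folding genes they were -1.997 for Hspd1, -1.19 for the disulfide isomerase Pdia4 and -1.43 for Dnajb11. All 15 of these genes were lower in transgenic DN2 and higher in transgenic DN3a cells. Of the 17 alternatives, 9 each ended the DN2 call of Aars and Ldha, 5 that of Dnajb11, 3 that of Psat1, 2 that of Pdia4 and 1 that of Shmt2.

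The receptor kinases went apart, with 2.13 for Syk and -2.37 for Zap70. The integrin gene Itgax had the largest difference of the 21, 6.21, from DN3a means of 0.725 CPM in wild-type and 0.103 CPM in transgenic libraries. The others higher in DN2 were Cd163 at 3.64, Bmf at 2.33 and the kinase gene Jak1 at 1.05. The DN2 calls of Zap70 and Jak1 ended in 6 alternatives each and that of Bmf in 5. Mice 1 and 2 (wild-type) and 162, 163 and 166 (transgenic) gave libraries of both stages, which the fit did not pair.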

How the results depend on the processing

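Counts of called genes moved with the library left out, and no gene chosen by the naming rule reversed in any of 17 alternatives. Of all 3426 called genes, 3 turned sign without wild-type replicate 1 and 2 without wild-type replicate 2. Leaving out 1 library in turn gave 1535 to 4297 called genes, 717 to 2167 higher and 818 to 2130 lower, and 1667 to 3584 genes whose DN2 effect differed from that in DN3a. The lowest numbers came without wild-type replicate 1 and the highest without transgenic replicate 1. A lone wild-type library is there assumed to vary like the other groups. With the unnamed feature's log2 share in the fit there were 1413 calls, 723 higher and 690 lower. The fit of the 5 young DN2 libraries alone gave 1071 lower genes from fewer residual degrees of freedom. It ended 33 of the 239 calls among genes that the naming rule chose. An adjusted p under 0.01 left 1778 calls (911 higher, 867 lower) and 1333 stage differences. A fold of at least 2 left 2128 calls (1160 higher, 968 lower). limma voom called 4571 stage differences. Replicate numbers are shared by 2 pairs of DN2 libraries, each of a wild-type and a transgenic mouse. Within these pairs the deviations from the group means correlated at 0.178 and 0.0995. Wild-type replicate 2 and transgenic replicate 3, whose numbers differ, gave 0.143. The deviations of 2 wild-type libraries are equal and opposite, so such values cannot show a pairing. A fit with a replicate block gave 3502 calls and 3043 stage differences. Across stages this block joins libraries of different transgenic mice. Without robust estimation, an alternative chosen after seeing the data, 3436 genes were called. Of 239 called genes that the naming rule chose, 154 kept their call without each library and 138 in every alternative. Leaving out wild-type replicate 1 ended 75 of these calls, and the unnamed feature's share in the fit 94. Other causes of these shifts were not tested. With 2 wild-type libraries and 7183303 to 11360308 reads, genes near 1 CPM rest on few reads.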
